A study of Mus musculus with 131 samples.

Results

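The 10 genes of epithelial cell junctions and cell adhesion described here are Cdh1, Dsp, Cldn4, Cldn6, Cldn7, Ocln, Tjp1, Epcam, Itga6 and Vcl, read out across single cells of mouse blastocysts. They were taken by gene symbol, and 10 of 10 were among the 13927 genes measured. The injected, RFP-labelled cells were compared with the GFP-labelled host cells. In RFP cells 7 of the 10 genes were at least 2-fold lower than in GFP cells, beside 21.9% of all genes, and 0 were at least 2-fold higher, beside 25%.

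The cells came from E4.0 blastocysts of strain C57BL/6J: 55 RFP cells carried an Actin-RFP transgene and 40 GFP cells an Actin-GFP transgene, named for the actin promoter. The study reconstructed embryos by injecting embryonic stem cells (ESCs) that carry Actin-RFP into Actin-GFP host embryos, which the design text states for embryos at the eight-cell stage that were followed to E7.5. Bisulfite libraries of cultured cells gave a second readout, with 1 library each of Actin-RFP ESCs at passage 10, Gjb2-35delG ESCs at passage 7, homozygous for a deletion in a gap junction gene, and wild-type mouse embryonic fibroblasts (MEF) at passage 2. The other 33 of 131 samples were not analysed here. No label names an embryo or a picking day, so cells of 1 colour share an unknown number of embryos, each colour counted as 1 sample, and no test between RFP and GFP cells was run.

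Epithelial cells hold together through a set of junctions that sit in order along their sides. Tight junctions, built from claudins and occludin on ZO scaffold proteins, seal the space between cells; adherens junctions, built on E-cadherin, couple neighbours through actin; and desmosomes tie keratin filaments of one cell to those of the next. In the blastocyst the trophectoderm, the outer layer, is the first such epithelium and its tight junctions seal the fluid-filled cavity, while the inner cells adhere through E-cadherin without forming a sealing layer.

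Promoter sequences of 4 members are shown. Of the RefSeq starts listed, theirs differed most in DNA methylation between Actin-RFP ESCs and MEF. Each is the 250 bases before a RefSeq start listed for the gene on build GRCm38.p6, printed in the direction of the gene. For Tjp1 the listed start, at 65371244, lies inside the gene, which spans 65296165 to 65527850. Its outer end was not read, so the Tjp1 sequence and methylation describe this internal start. Dsp lies on the + strand at chr13:38151044-38151293, Cldn4 on the - strand at chr5:134946935-134947184, Epcam on the + strand at chr17:87635729-87635978 and Tjp1 on the - strand at chr7:65371245-65371494. Capitals mark the E-box CAGGTG or, on the other strand, CACCTG, letters that repressors of the Snail and Zeb families are known to bind.
Dsp: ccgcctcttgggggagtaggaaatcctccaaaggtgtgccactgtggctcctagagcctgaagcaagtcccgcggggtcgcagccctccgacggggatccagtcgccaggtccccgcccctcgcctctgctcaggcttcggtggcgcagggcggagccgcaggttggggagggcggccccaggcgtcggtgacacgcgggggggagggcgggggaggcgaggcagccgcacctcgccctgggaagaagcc
Cldn4: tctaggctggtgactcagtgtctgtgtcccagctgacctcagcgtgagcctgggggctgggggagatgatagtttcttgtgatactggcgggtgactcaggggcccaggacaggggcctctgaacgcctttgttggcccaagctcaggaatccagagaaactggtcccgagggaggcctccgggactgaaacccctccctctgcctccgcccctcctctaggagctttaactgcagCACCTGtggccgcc
Epcam: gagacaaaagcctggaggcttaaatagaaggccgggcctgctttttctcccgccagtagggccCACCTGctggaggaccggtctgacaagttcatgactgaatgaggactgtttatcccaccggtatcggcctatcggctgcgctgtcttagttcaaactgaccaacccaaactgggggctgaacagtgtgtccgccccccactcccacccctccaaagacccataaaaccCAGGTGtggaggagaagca
Tjp1: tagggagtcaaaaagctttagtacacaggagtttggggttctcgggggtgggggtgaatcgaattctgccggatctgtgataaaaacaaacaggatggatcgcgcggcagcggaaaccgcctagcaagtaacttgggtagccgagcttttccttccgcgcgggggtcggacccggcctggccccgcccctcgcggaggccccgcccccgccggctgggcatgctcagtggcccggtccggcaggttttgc
Cldn4 holds the E-box with its first base 14 bases before the start, and Epcam holds 2, with first bases 187 and 19 bases before the start. Neither Dsp nor Tjp1 holds one in these windows. Among the 10 RefSeq starts listed for 8 of the members, 5 hold the E-box on either strand, those of Cldn4, Cldn6 and Epcam and the second starts listed for Cldn7 and Ocln, against 17.2% of 32851 promoter windows of this length in the genome. The letters GGAATG, bound by TEAD factors, occur in 2 of the 10 windows against 12.6% of all, GCCNNNGGC, bound by AP-2 factors, in 2 against 13.7%, and AACNGGTT, bound by Grainyhead-like factors, in 0 against 1.79%. A match describes letters only; no binding was measured.

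Sequencing depth was alike in both colours. RFP cells held 518064 to 9562072 reads (median 5584451) with 2094 to 7768 genes detected (median 4527), and GFP cells held 1996187 to 8315062 reads (median 5607157) with 2626 to 7645 genes (median 5209). Mitochondrially encoded genes took more than 10% of reads in 4 RFP cells and 1 GFP cell. Trophectoderm markers, 14 genes including Gata3, Krt8 and Krt18, summed to 0.627 to 4113 CPM per RFP cell (median 74.2) and 23.7 to 17758 CPM per GFP cell (median 8690). Epiblast markers, 12 genes including Fgf4 and Tdgf1, summed to 131 to 24237 CPM per RFP cell (median 9107) and 2806 to 9054 CPM per GFP cell (median 4815), with Nodal at 0 reads in GFP cells. In GFP cells nearly all of that sum was Dppa5a (median 4738 CPM), and in RFP cells Dppa5a was its largest part (median 6144 CPM). Fgf4 stood at 516 CPM in RFP cells and 3.57 CPM in GFP cells, and Tdgf1 at 1388 CPM in RFP cells and 2.32 CPM in GFP cells. Of the 12, 10 were at least 2-fold higher in RFP cells, beside 25% of all genes, and 0 lower, beside 21.9%. Nanog went the other way without reaching 2-fold, at 19.1 CPM in RFP cells and 26.8 CPM in GFP cells. Markers of feeder fibroblasts, of which 4 of 10 were measured, summed to at most 74.2 CPM in an RFP cell and 7.57 CPM in a GFP cell. Cell GFP27 stood apart from the other GFP cells, with the 23.7 CPM of trophectoderm markers where the next GFP cell had 4518, 14.9% mitochondrial reads and none of the 10 members at 10 CPM. RFP55 stood apart from the other RFP cells, with 4113 CPM of these markers where the next RFP cell had 1142, and 4 members at 10 CPM. Leaving out either one, or every cell above 10% mitochondrial reads, kept the number of members lower in RFP cells at 7. Since all 14 trophectoderm markers were also lower in RFP cells, a difference between cells of the 2 colours cannot be told apart from a difference in the make-up of the picked cells by lineage.

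Levels are given in CPM, the reads of a gene scaled to the total reads of the cell, and group levels are the reads summed over the cells of a colour, scaled to their summed total. Differences are log2 ratios of group CPM + 1, RFP over GFP, and a gene is called lower or higher at a log2 ratio of at least 1 either way. Intervals of levels are exact Poisson 95% intervals and those of shares exact binomial 95% intervals, and both cover counting error only, not the spread between embryos. The 7 of 10 members called lower stand beside 21.9% of all 13927 genes called lower, and the 0 members called higher beside 25% of all genes. The median log2 ratio of the members was -1.41, against 0.08 for all genes. Among genes at 10 CPM or more in a colour, which hold 9 of the 10 members, 6 members were lower, beside 23.3% of 8184 genes, and 0 higher, beside 26.3%.

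**Figure D1:**
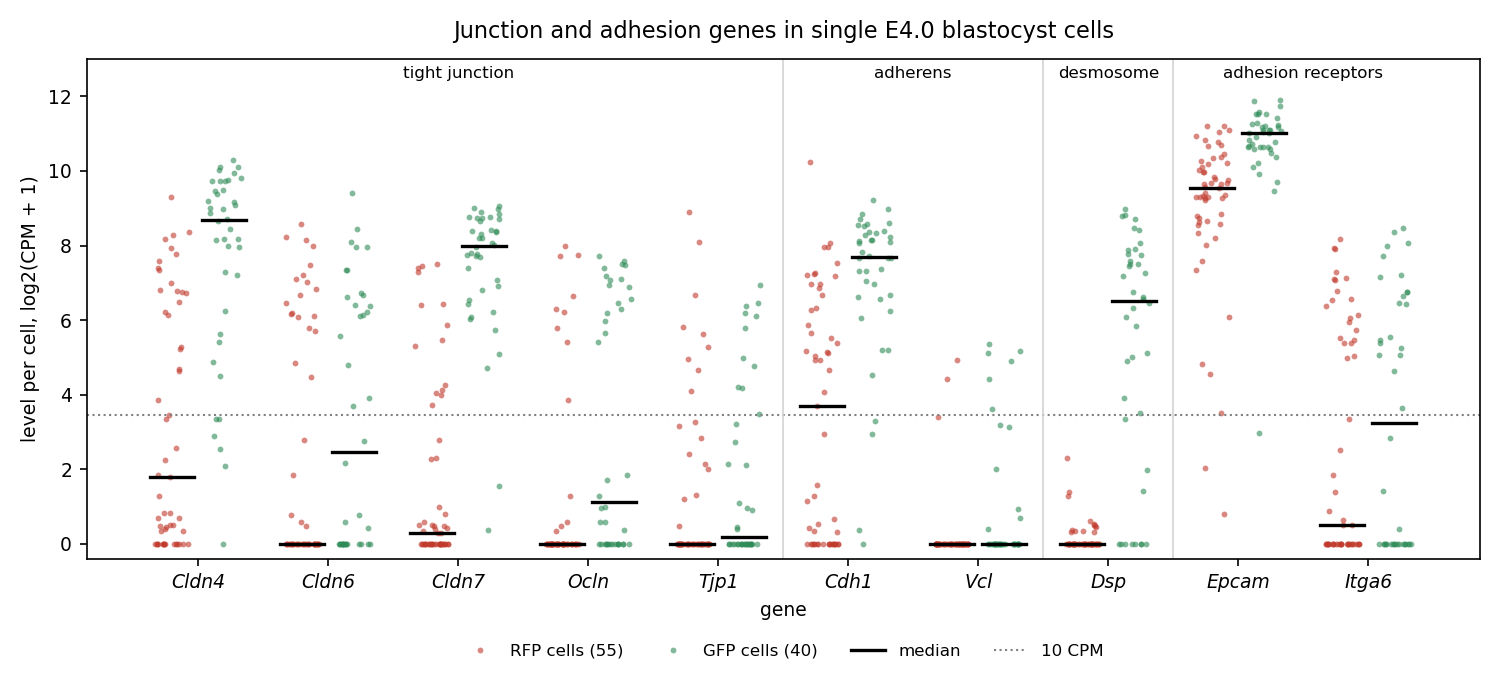
Level of each of the 10 genes in single cells, as log2(CPM + 1), with 1 point for each of 55 RFP and 40 GFP cells, bars at the median and a dotted line at 10 CPM. Dsp has no RFP cell above the line, while Epcam is above it in 53 RFP and 39 GFP cells.

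Claudins are the membrane proteins that form the strands of tight junctions. Cldn4, a claudin of tight, poorly permeable epithelia, had 0, 2.43 and 629 CPM in the lowest, median and highest RFP cell, against 0, 411 and 1265 CPM in GFP cells. Summed over cells it stood at 58.6 CPM (57.8 to 59.5) in RFP cells and 457 CPM (455 to 460) in GFP cells, a log2 ratio of -2.94. The colours overlapped, with 13 of 40 GFP cells above the highest RFP cell and 1 RFP cell above the median GFP cell. It reached 10 CPM in 23 RFP cells (41.8%, 28.7 to 55.9) and 34 GFP cells (85%, 70.2 to 94.3), and the RFP cells that reached it had a median of 109 CPM, against 507 CPM in the GFP cells that did. So fewer RFP cells reached 10 CPM, and those that did had less.

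Cldn7, a claudin of the lateral cell surface that associates with Epcam, separated the colours further. Its lowest, median and highest RFP cell had 0, 0.230 and 181 CPM, against 0.297, 253 and 534 CPM in GFP cells. No RFP cell was above the median GFP cell, and 26 of 40 GFP cells were above the highest RFP cell. The summed level was 19.3 CPM (18.8 to 19.8) in RFP cells and 255 CPM (253 to 257) in GFP cells, a log2 ratio of -3.66, the second lowest of the 10. It reached 10 CPM in 14 RFP cells (25.5%) and 38 GFP cells (95%).

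Cldn6, a claudin of embryonic epithelia and pluripotent cells, was close to even between the colours. Its lowest, median and highest cell had 0, 0 and 379 CPM among RFP cells and 0, 4.64 and 672 CPM among GFP cells. The summed levels were 49.9 CPM (49.2 to 50.7) in RFP cells and 66.4 CPM (65.3 to 67.5) in GFP cells, a log2 ratio of -0.40. Among cells at 10 CPM, 19 of 55 RFP and 19 of 40 GFP cells, the medians were 100.4 CPM in RFP cells and 96.8 CPM in GFP cells. Thus the 3 claudins did not share 1 pattern: Cldn4 and Cldn7 were called lower in RFP cells and Cldn6 was not.

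Ocln encodes occludin, a membrane protein of the tight junction strand. It had 0, 0 and 251 CPM in the lowest, median and highest RFP cell, against 0, 1.21 and 211 CPM in GFP cells. The highest cell was an RFP cell, so the ranges overlapped fully, but 42 of 55 RFP cells held no read of it, against 15 of 40 GFP cells. The summed levels of 18.5 CPM (18.02 to 18.98) in RFP cells and 56.2 CPM (55.2 to 57.2) in GFP cells gave a log2 ratio of -1.55.

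Tjp1 encodes ZO-1, the scaffold that ties tight junction proteins to actin, and it was the 1 member with a summed level higher in RFP cells. The lowest, median and highest cells had 0, 0 and 474 CPM among RFP cells and 0, 0.153 and 122 CPM among GFP cells. The summed levels were 25.7 CPM (25.2 to 26.3) in RFP cells and 14.3 CPM (13.8 to 14.8) in GFP cells, a log2 ratio of 0.80. That direction rested on 1 cell: RFP5 held 43.3% of the CPM summed over RFP cells, and without it the log2 ratio was -0.06, while without RFP43 it was 0.45. Without GFP34, the highest GFP cell, the ratio was 1.11, and without GFP19 it was 1.003, both past the limit for a call. By share of cells the order was the other way, with 9 of 55 RFP cells (16.4%, 7.77 to 28.8) and 11 of 40 GFP cells (27.5%, 14.6 to 43.9) at 10 CPM, and these intervals overlapped.

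Cdh1 encodes E-cadherin, the core of the adherens junction and the adhesion protein of embryo compaction. It had 0, 11.97 and 1213 CPM in the lowest, median and highest RFP cell, against 0, 205 and 601 CPM in GFP cells. The highest value in any cell was in RFP39, which held 31.7% of the CPM summed over RFP cells, while 18 RFP cells and 1 GFP cell held no read. The summed levels were 64.96 CPM (64.1 to 65.9) in RFP cells and 229 CPM (227 to 231) in GFP cells, a log2 ratio of -1.80, or -2.18 without RFP39. It reached 10 CPM in 28 RFP cells (50.9%, 37.1 to 64.6) and 36 GFP cells (90%, 76.3 to 97.2).

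Vcl encodes vinculin, which links cadherin and integrin complexes to actin, and it was scarcely detected. The lowest, median and highest cells had 0, 0 and 29.3 CPM among RFP cells and 0, 0 and 39.8 CPM among GFP cells, and 52 of 55 RFP cells and 28 of 40 GFP cells held no read. Its summed levels of 1.37 CPM (1.24 to 1.50) in RFP cells and 4.71 CPM (4.43 to 5.01) in GFP cells gave a log2 ratio of -1.27. The call did not hold without GFP39, where the ratio was -0.95, nor with a pseudocount of 10 CPM, where it was -0.37, nor with mean log2(CPM + 1) over cells, where the difference was -0.74.

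Dsp encodes desmoplakin, the plaque protein that binds keratin filaments to the desmosome, and it differed most of the 10. It had 0, 0 and 3.92 CPM in the lowest, median and highest RFP cell, against 0, 90.5 and 506 CPM in GFP cells. All RFP cells together held 42 reads of it, spread over 13 of the 55 cells, while GFP cells held 33134. The summed levels were 0.135 CPM (0.0973 to 0.182) in RFP cells and 148 CPM (147 to 150) in GFP cells, a log2 ratio of -7.04, which left it within the lowest 0.122% of all genes. It reached 10 CPM in 0 of 55 RFP cells, which allows a share of up to 6.49%, and in 29 of 40 GFP cells (72.5%, 56.1 to 85.4). Still, 8 GFP cells held no read, and 30 GFP cells were above the highest RFP cell. The RFP cell with the highest level, RFP14, is 1 of the 4 above 10% mitochondrial reads.

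Epcam encodes the epithelial cell adhesion molecule, a membrane glycoprotein of epithelia and of pluripotent cells, and it was the member detected in most cells. The lowest, median and highest cells had 0.733, 740 and 2368 CPM among RFP cells and 6.78, 2068 and 3808 CPM among GFP cells. It reached 10 CPM in 53 of 55 RFP cells and 39 of 40 GFP cells, so here the difference lay in the level within cells and not in the share of cells. The summed levels of 876 CPM (872 to 879) in RFP cells and 2038 CPM (2032 to 2043) in GFP cells gave a log2 ratio of -1.22. Of the GFP cells, 12 were above the highest RFP cell, and 4 RFP cells were above the median GFP cell.

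Itga6 encodes the alpha6 integrin subunit, which pairs with beta1 or beta4 to bind laminin. It had 0, 0.421 and 290 CPM in the lowest, median and highest RFP cell, against 0, 8.79 and 351 CPM in GFP cells. The summed levels were 43.7 CPM (42.9 to 44.4) in RFP cells and 67.2 CPM (66.1 to 68.3) in GFP cells, a log2 ratio of -0.61, short of the call. It reached 10 CPM in 21 RFP cells (38.2%, 25.4 to 52.3) and 20 GFP cells (50%, 33.8 to 66.2), and 22 RFP cells were above the median GFP cell.

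In the authors' deposited table the log2 fold changes had the same sign for all 10 genes, reading -10.13 for Dsp, -3.77 for Cldn7, -3.01 for Cldn4, -1.82 for Cdh1 and 0.09 for Tjp1. Those values come from the same cells and are no second measurement. In all 10 genes the share of cells at 10 CPM was smaller in RFP cells than in GFP cells. With every cell thinned to 500000 reads this held for the same number of genes, 10 of 10, the share for Dsp being 0% of RFP cells and 75% of GFP cells. No gene has a transcript length in the sources used here, so levels were not ranked between genes.

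RFP cells carried fewer of the 10 genes at a time. The number of members at 10 CPM ranged from 0 to 8 with a median of 3 in RFP cells, and from 0 to 10 with a median of 6 in GFP cells. At least 6 members were present in 8 of 55 RFP cells and 30 of 40 GFP cells. All 10 were present in 3 cells, GFP24, GFP39 and GFP40, and the RFP cell with most, RFP7, had 8. RFP12 and GFP27 had none, and these were the RFP cell with the fewest genes detected, 2094, and the GFP cell with the fewest, 2626. The number of members followed the number of genes detected in a cell, with Spearman's rho of 0.76 over 55 RFP cells and 0.75 over 40 GFP cells. Its rho with total reads was 0.10 in RFP cells and 0.24 in GFP cells. The part of genes detected in the difference between the colours was not tested.

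**Figure D2:**
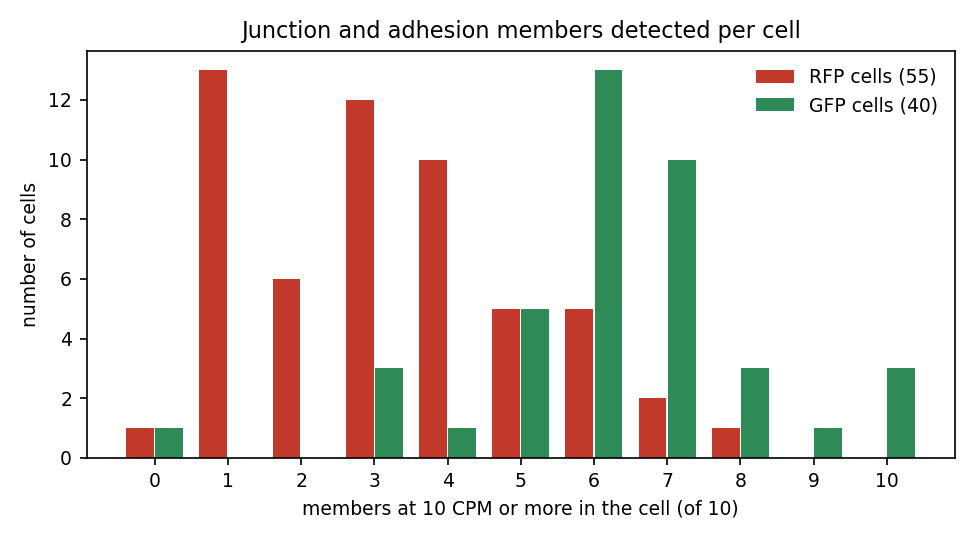
Number of the 10 genes at 10 CPM or more in a cell (horizontal axis) against the number of cells (vertical axis), for 55 RFP and 40 GFP cells. RFP cells centre on 3 genes and GFP cells on 6, and only GFP cells reach 9 or 10.

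Pairs of junction genes in 1 cell differed in the same direction. Cldn4 and Cldn7 were both at 10 CPM in 8 RFP cells and 33 GFP cells. None of the claudins Cldn4, Cldn6 and Cldn7 reached it in 23 RFP cells and 1 GFP cell, and all 3 did in 7 RFP cells and 17 GFP cells. Cdh1 and Epcam were together in 27 RFP cells and 36 GFP cells. Epcam, with or without Cdh1, was at 10 CPM in 53 of 55 RFP cells and 39 of 40 GFP cells. Cdh1 and Dsp were together in 0 RFP cells and 28 GFP cells, and Dsp, with or without Cdh1, was at 10 CPM in 0 RFP cells. That leaves 28 RFP cells with Cdh1 and no Dsp at 10 CPM. Such pair counts depend on the share of cells that hold each single gene. Whether genes occurred together more often than these shares give was not tested.

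Tight junction genes were set against adherens and desmosome genes within each cell. The mean log2(CPM + 1) of Cldn4, Cldn6, Cldn7, Ocln and Tjp1 had a lowest, median and highest value of 0, 1.69 and 6.18 in RFP cells and 0.51, 4.79 and 7.5 in GFP cells. The mean of Cdh1, Dsp and Vcl was 0, 1.47 and 4.04 in RFP cells and 0.12, 4.99 and 7.42 in GFP cells. The difference of the 2 means, tight junction minus the others, had a median of 0.22 and a mean of 0.67 in RFP cells (SD over cells 1.54), and a median of 0.11 and a mean of 0.23 in GFP cells (SD 1.93). The difference between these medians was 0.11, but -0.57 without Dsp and 1.86 without Vcl in the second class. Within each class the genes had unequal log2 ratios, -3.66 for Cldn7 beside -0.40 for Cldn6 in the first, and -7.04 for Dsp beside -1.80 for Cdh1 in the second.

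Other genes of these junctions were read from lists of 79 measured genes. Of these, 41 were called lower in RFP cells, beside 21.9% of all genes, and 5 higher, beside 25%, and their median log2 ratio was -1.02, beside 0.08 for all genes. Lists were fixed with earlier results of these data known, and the counts describe the lists without a test.

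Tight junction genes outside the members were lower in 16 and higher in 2 of 28, beside 21.9% and 25% of all genes. Their median was -1.22. Pard6b, a subunit of the apical Par polarity complex, stood at 7.42 CPM in RFP cells and 63.1 CPM in GFP cells, a log2 ratio of -2.93. Prkcz, an atypical protein kinase C of that complex, stood at 19.1 CPM in RFP cells and 145 CPM in GFP cells, a ratio of -2.86. The 2 called higher, Amotl1, an angiomotin-like protein, at 8.12 CPM in RFP cells and 0.921 CPM in GFP cells (2.25), and Jam3, an adhesion molecule, at 7.21 CPM in RFP cells and 1.70 CPM in GFP cells (1.603), were under 10 CPM in both colours. Among genes at 10 CPM in a colour, the highest were Jam2, an adhesion molecule of the immunoglobulin type, at 21.6 CPM in RFP cells and 10.96 CPM in GFP cells, and Ildr1, of tricellular junctions, at 15.4 CPM in RFP cells and 9.85 CPM in GFP cells; neither was called.

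Adherens junction genes outside the members were lower in 5 and higher in 2 of 17, beside 21.9% and 25% of all genes. Their median was 0.05. Among the 11 of these at 10 CPM in a colour, 5 were lower and 1 higher, beside 23.3% and 26.3% of all such genes. The median of the 11 was -0.56. Shroom3, which recruits contractile actin to the junction, stood at 2.03 CPM in RFP cells and 36.8 CPM in GFP cells (log2 ratio -3.64), and Nectin1, an immunoglobulin-type adhesion receptor, at 2.40 CPM in RFP cells and 14.1 CPM in GFP cells (-2.16). Its relative Nectin3 went the other way, at 102 CPM in RFP cells and 4.07 CPM in GFP cells, a log2 ratio of 4.35, and reached 10 CPM in 32 of 55 RFP cells and 5 of 40 GFP cells. Lima1, an actin-binding partner of the cadherin complex, stood at 104 CPM in RFP cells and 54.4 CPM in GFP cells, short of the call.

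Desmosome genes outside the members were lower in 5 and higher in 1 of 9, beside 21.9% and 25% of all genes. Their median was -1.49, and they included the steepest differences of the 4 lists. Perp, a membrane protein of desmosomes, stood at 2.58 CPM in RFP cells and 474 CPM in GFP cells, a log2 ratio of -7.05. Dsc2, a desmosomal cadherin, stood at 0.0578 CPM in RFP cells and 86.0 CPM in GFP cells, a ratio of -6.36. Pkp2, a plaque protein, was at 30.6 CPM in RFP cells and 50 CPM in GFP cells (-0.69), and Pnn, a desmosome-associated protein that also acts in the nucleus, at 164 CPM in RFP cells and 96.2 CPM in GFP cells (0.76); neither was called. The keratins that desmoplakin binds were lower in 4 of 5 genes and higher in 1, beside the same shares of all genes. The higher one, Krt42, had 8.31 CPM in RFP cells, 6 of them at 10 CPM, and no read in GFP cells. Krt8 stood at 51.6 CPM in RFP cells and 2505 CPM in GFP cells, and Krt18 at 106 CPM in RFP cells and 4220 CPM in GFP cells. Krt19, at -4.23, and Krt7, at -3.66, were lower too. Krt8, Krt18 and Krt7 are among the trophectoderm markers above.

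Integrin and focal adhesion genes outside the members were lower in 15 and higher in 0 of 25, beside 21.9% and 25% of all genes. Their median was -1.52. Itga1, a collagen-binding integrin subunit, stood at 0.0193 CPM in RFP cells and 14.96 CPM in GFP cells (log2 ratio -3.97), and Zyx, the focal adhesion protein zyxin, at 6.96 CPM in RFP cells and 85.4 CPM in GFP cells (-3.44). Ptk2, which encodes focal adhesion kinase, and Actn1, an actin crosslinker, were not called, each with a ratio of 0.23. Of the extracellular partners of these receptors in the basement membrane, 8 of 11 were lower and 2 higher, beside the same shares of all genes. The collagen gene Col4a1, at -4.10, and the laminin gene Lama1, at -3.83, had the lowest log2 ratios, and Fn1, at 3.91, and Nid2, at 1.35, the highest. Col4a1 and Lama1 are also primitive endoderm markers. Of that list, 9 of 11 measured genes were lower in RFP cells and 1, Apoe, was higher, beside the same shares of all genes. That list summed to 11.6 to 9810 CPM per RFP cell (median 2347) and 1.12 to 1225 CPM per GFP cell (median 248), the RFP values being almost all Apoe, at a median of 2347 CPM in RFP cells and 100.3 CPM in GFP cells, with Pdgfra, Sox7 and Cubn at 0 reads in RFP cells, and its part in these values was not tested.

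Genes related to Epcam, or to membrane proteases and their inhibitors, were lower in 2 and higher in 1 of 7, beside 21.9% and 25% of all genes in these directions. St14, a membrane serine protease, stood at 5.38 CPM in RFP cells and 42.7 CPM in GFP cells (log2 ratio -2.78). Cd24a, a small surface glycoprotein, was the higher one, at 32.7 CPM in RFP cells and 0.948 CPM in GFP cells (4.11). Prss8, another membrane protease, was not called (0.66).

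Genes that control or mark epithelial or mesenchymal state gave 6 lower and 3 higher of 14, beside 21.9% and 25% of all genes. The 6 lower were all epithelial factors, and the 3 higher were the mesenchymal genes Zeb1, Vim and Snai1. The median of the 14, both kinds together, was -0.19. Among the 8 of these at 10 CPM in a colour, 5 were lower and 1 higher, beside 23.3% and 26.3% of all such genes. The median of the 8 was -1.80. Elf3, an epithelial ETS factor, stood at 0.524 CPM in RFP cells and 277 CPM in GFP cells, the lowest log2 ratio of this list at -7.51. Esrp2, an epithelial splicing regulator, stood at 0.594 CPM in RFP cells and 16.5 CPM in GFP cells (-3.46). Grhl2, a Grainyhead-like factor known to activate Cdh1 and claudin genes, stood at 88.2 CPM in RFP cells and 51.2 CPM in GFP cells (0.77), short of the call. Vim, an intermediate filament of mesenchymal cells, stood at 22.8 CPM in RFP cells and 5.72 CPM in GFP cells (1.82). Of the repressors that bind the E-box, Zeb1 had 6.87 CPM in RFP cells, where 6 of 55 cells were at 10 CPM, and Snai1 had 1.39 CPM with 2 such cells, while neither had a read in GFP cells.

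**Figure D3:**
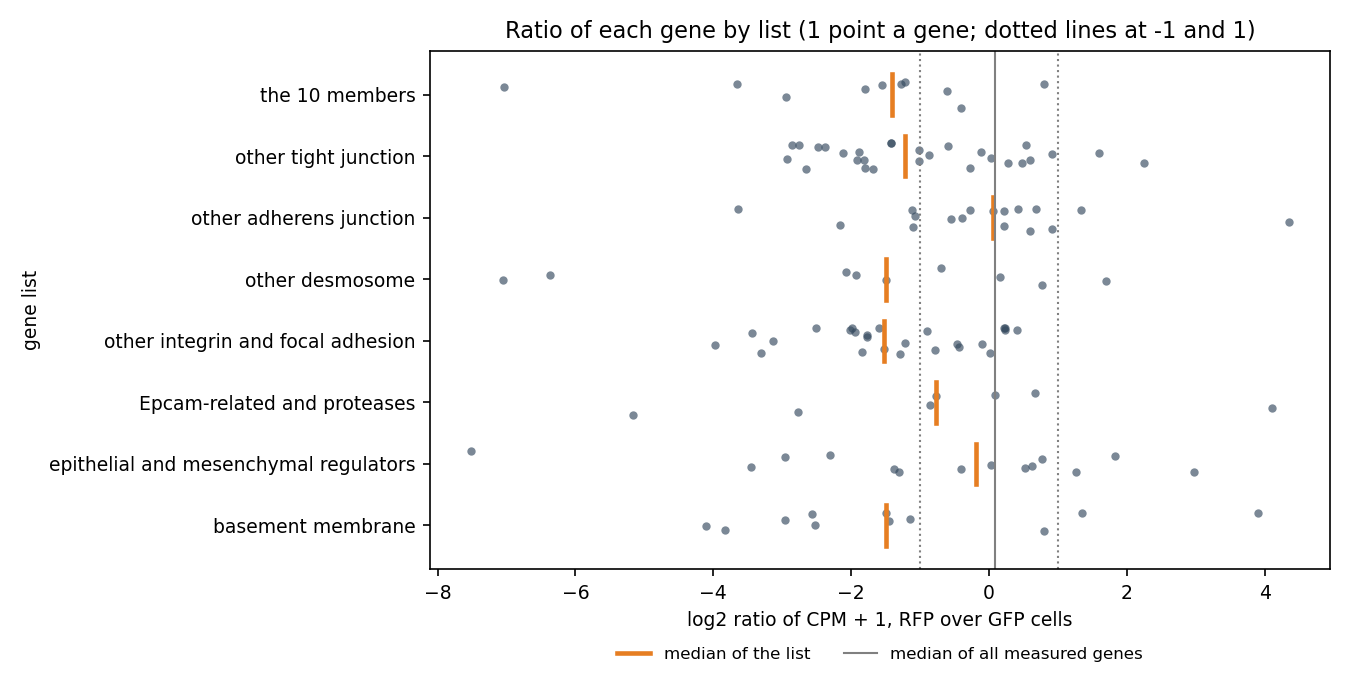
Log2 ratio of CPM + 1, RFP over GFP cells (horizontal axis), of each measured gene in 8 lists, 1 point a gene, with list medians as thick bars, dotted lines at -1 and 1 and the median of all genes as a grey line. The desmosome list reaches below -7, while the adherens junction list, with a median of 0.05 over all its measured genes and -0.56 over those at 10 CPM in a colour, holds Nectin3 at 4.35.

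Co-expression of the members was read across the 40 GFP cells, which share colour and library method but differ in the number of genes detected and may share embryos. Spearman's rho over the 45 pairs of members had a median of 0.13 and ranged from -0.28 to 0.53, beside a median of 0.06 over all pairs of the 3520 genes that reached 10 CPM in at least 50% of GFP cells. Of the members, Cldn6, Ocln, Tjp1 and Vcl fell short of that 50% and are not in this background. At 0.3 or more were 5 of 45 member pairs, beside 8.57% of the background pairs. The 5 were Cldn4 with Vcl at 0.53, Cldn4 with Cldn7 at 0.41, Cldn7 with Vcl at 0.38, Dsp with Itga6 at 0.36 and Cldn6 with Cldn7 at 0.33. Vcl was above 0 in 12 GFP cells only, so its pairs rest on few cells.

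Within GFP cells, genes of 1 junction were not much closer to each other than to the rest. Among the 10 tight junction pairs the median was 0.19, and among the 15 pairs of a tight junction gene with Cdh1, Dsp or Vcl it was 0.08. Cdh1, detected at 10 CPM in 36 GFP cells, had a rho of -0.01 with Cldn4 and 0.28 with Dsp. Epcam and Tjp1 gave the lowest value of all pairs, -0.28. After the ranks were adjusted for the number of genes detected in a cell, the median was 0.03 and no pair stayed at 0.3, Cldn4 with Vcl coming to 0.2987. These are weak relations in sparse counts and are given as a description.

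**Figure D4:**
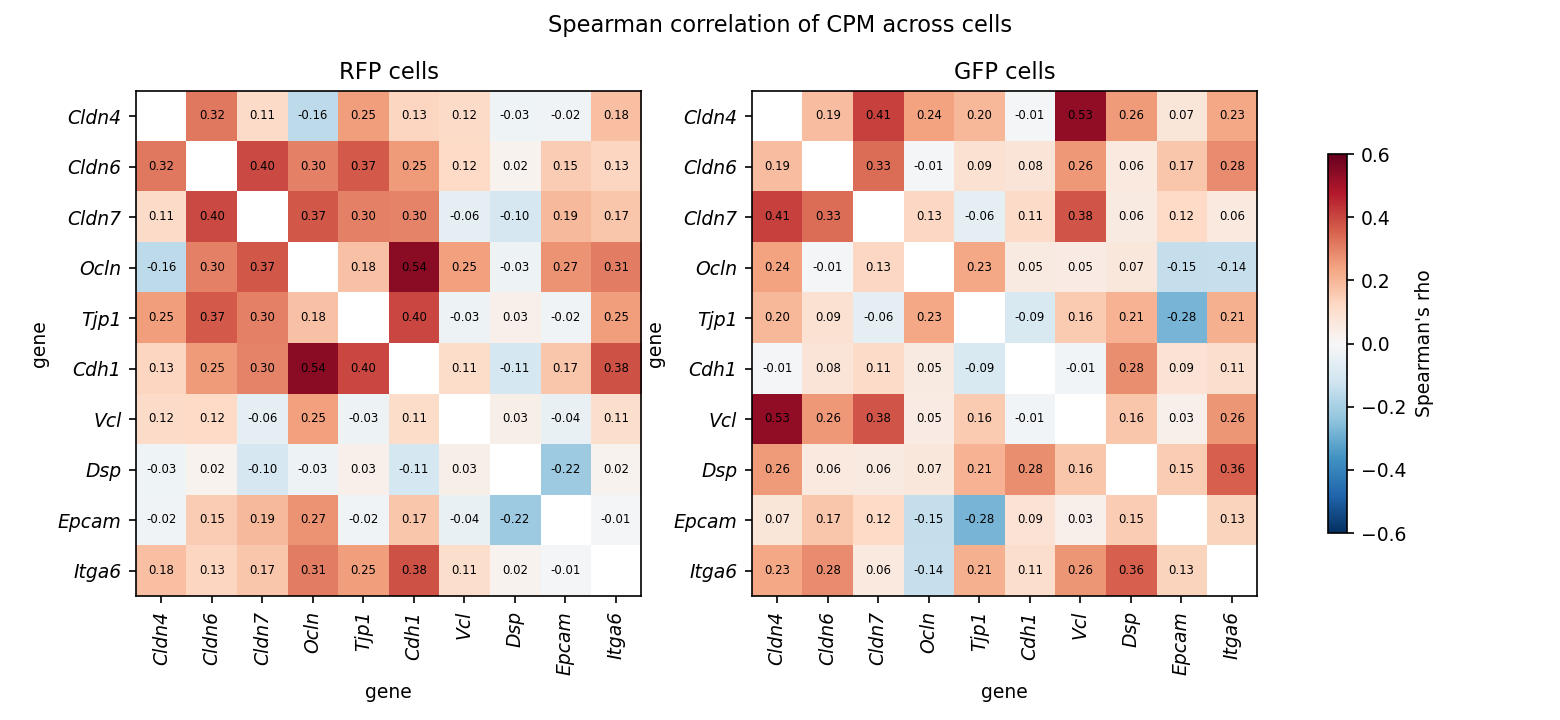
Spearman's rho of CPM for each pair of the 10 genes (rows and columns), across 55 RFP cells on the left and 40 GFP cells on the right, coloured from -0.6 to 0.6. The highest value is Ocln with Cdh1 at 0.54 in RFP cells and Cldn4 with Vcl at 0.53 in GFP cells.

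Across the 55 RFP cells the 45 pairs also had a median of 0.13, with 10 pairs at 0.3 or more. Beside them stood 11.8% of all pairs of the 2593 genes that reached 10 CPM in at least 50% of RFP cells. Of the members only Cdh1 and Epcam reached that limit, so most member pairs involve genes detected in fewer cells than this background. Among the 10 tight junction pairs the median was 0.30, with 6 at 0.3 or more. For the 15 pairs of a tight junction gene with Cdh1, Dsp or Vcl it was 0.12, with 2 at 0.3 or more. Values of single pairs differed from those in GFP cells. Ocln with Cdh1 gave 0.54 in RFP cells and 0.05 in GFP cells, and Tjp1 with Cdh1 0.40 in RFP cells and -0.09 in GFP cells. Cldn4 with Cldn7 gave 0.11 in RFP cells and 0.41 in GFP cells. Cldn6 with Cldn7 was alike, at 0.40 in RFP cells and 0.33 in GFP cells. Whether any of these pairs differed between colours was not tested.

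The genes whose pattern across GFP cells was most like the mean of the 10 members were Atg4b, a protease of autophagy, with a rho of 0.74, Pi4k2a, a lipid kinase, with 0.71, and Shcbp1, Rcn2, Cyc1 and Tbrg1, with 0.70, 0.70, 0.69 and 0.69, each over 40 cells. Each of these 6 also followed the number of genes detected, with rho between 0.57 and 0.67, and the member mean itself followed it at 0.76. Among trophectoderm markers Krt8 followed the member mean at 0.58 and Cldn4 at 0.68, and Krt18 followed the mean at 0.31, Eomes at 0.29, Krt7 at 0.29, Gata3 at 0.13 and Cdx2 at 0.12.

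DNA methylation around the gene starts was read in the 3 cultured lines, a measure of other cells than those of the blastocyst. The value is the share of CpG calls that were methylated in 200 bp windows centred between 1000 bp before and 500 bp after each RefSeq start, with Wilson 95% intervals that cover counting error only. All 10 starts of 8 members were lower in Actin-RFP ESCs than in MEF, and 9 were lower in Gjb2-35delG ESCs than in MEF. Most starts in the genome were lower too, as counted below over windows with calls in all 3 lines. By at least 10 points, 5 starts were lower in Actin-RFP ESCs, beside 68.0% of 31500 starts in the genome, and 2 in Gjb2-35delG ESCs, Cldn4 and Dsp, beside 35.3%. In both ESC lines 0 were at least 10 points higher, beside 0.581% of starts in Actin-RFP ESCs and 7.35% in Gjb2-35delG ESCs. The median difference from MEF was -9.87 points in Actin-RFP ESCs, beside -23.5 points over all starts, and -5.32 points in Gjb2-35delG ESCs, beside -5.49 points. The lower level in Actin-RFP ESCs is thus a feature of most starts in that library, and the members, with a median of 8.93% there, 17.6% in Gjb2-35delG ESCs and 24.5% in MEF, began from a lower level in MEF than the median start, at 49.8%. The windows with calls differ between the lines, so the values were also read over windows with calls in all 3 lines, a choice made after seeing the data. There 10 member starts were lower in Actin-RFP ESCs and 8 in Gjb2-35delG ESCs than in MEF. Beside them, of all 31307 starts, 29154 were lower in Actin-RFP ESCs and 23457 in Gjb2-35delG ESCs. By at least 10 points, 5 member starts were lower in Actin-RFP ESCs, beside 68.0% of 31307 starts, and 2 in Gjb2-35delG ESCs, Cldn4 and Tjp1, beside 35.4%.

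Cldn4 gave the largest difference of the members. Its start was methylated at 3.91% (2.55 to 5.97, 511 calls) in Actin-RFP ESCs and 7.25% (4.92 to 10.6, 331 calls) in Gjb2-35delG ESCs, against 36.8% (31.9 to 42.1, 342 calls) in MEF. The intervals of both ESC lines lie below that of MEF. In the window centred at -766 bp, upstream of the start, MEF had 91.7% methylation and both ESC lines 0%, on 24 MEF calls, 11 Actin-RFP ESC calls and 9 Gjb2-35delG ESC calls. In the windows that touch the 250 bases printed above, the values were 1.45% in Actin-RFP ESCs, 4% in Gjb2-35delG ESCs and 9.46% in MEF. So the promoter with the E-box next to the start was little methylated in all 3 lines, and the difference lay on either side of it.

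Dsp, the member with the fewest reads in RFP cells, had the most methylated of the 10 member starts in each of the 3 lines. Between lines its value was lowest in Actin-RFP ESCs, where the interval overlaps that of Gjb2-35delG ESCs. Its start stood at 20.2% (16.1 to 25.1, 302 calls) in Actin-RFP ESCs, 25% (21.1 to 29.4, 420 calls) in Gjb2-35delG ESCs and 40% (34.9 to 45.3, 335 calls) in MEF. From the start to 500 bp after it, only Gjb2-35delG ESCs had calls. Over the 5 windows covered in all 3 lines, Gjb2-35delG ESCs stood at 36.04% (30.7 to 41.8, 283 calls), which overlaps the MEF interval, while the Actin-RFP ESC and MEF values are those above. In the window centred at -194 bp, within the printed promoter, the values were 2.63% in Actin-RFP ESCs, 0% in Gjb2-35delG ESCs and 2% in MEF, on 38, 59 and 50 calls in that order of lines.

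Epcam stood at 10.9% (8.45 to 14.1, 475 calls) in Actin-RFP ESCs, 21.5% (17.2 to 26.6, 293 calls) in Gjb2-35delG ESCs and 31.1% (25.7 to 37.2, 244 calls) in MEF. Tjp1, at its listed start inside the gene, stood at 4.40% (3.10 to 6.21, 682 calls) in Actin-RFP ESCs, 22.8% (17.4 to 29.2, 189 calls) in Gjb2-35delG ESCs and 28.8% (24.5 to 33.5, 382 calls) in MEF. In both genes the Actin-RFP ESC interval lies below the other lines, and the 2 other intervals overlap. For Tjp1 the Gjb2-35delG ESC library has no calls in the windows next to the start. Over the 4 windows covered in all 3 lines, Tjp1 stood at 10% (6.57 to 14.9, 200 calls) in Actin-RFP ESCs, 22.8% (17.4 to 29.2, 189 calls) in Gjb2-35delG ESCs and 38.8% (33.2 to 44.7, 273 calls) in MEF, with no overlap of intervals. Cldn6 was at 16.01% in Actin-RFP ESCs, 18.7% in Gjb2-35delG ESCs and 26.8% in MEF.

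With each line read over its own windows, the remaining starts were at 22.1% or less in all 3 lines. Vcl, at 3.13% in Actin-RFP ESCs, 2.77% in Gjb2-35delG ESCs and 4.82% in MEF, was the lowest. The second start listed for Cldn7 was at 7.62% in Actin-RFP ESCs, 8.55% in Gjb2-35delG ESCs and 8.76% in MEF, and the second for Ocln at 6.22%, 8.61% and 7.71% in that order. The first start listed for Cldn7 had 13.2%, 17.5% and 22.1%, and the first for Ocln 10.2%, 17.6% and 18.1%, in the same order of lines; the windows of the 2 Ocln starts overlap. Over windows covered in all 3 lines the first start of Ocln was at 12.2% in Actin-RFP ESCs, 23.2% in Gjb2-35delG ESCs and 18.1% in MEF.

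Cdh1 and Itga6 have no start in the promoter table used here, so both ends of each gene were read without saying which is the start. Cdh1 has its lower end at position 106603350 of chromosome 8, with 6.19% methylation in Actin-RFP ESCs, 9.30% in Gjb2-35delG ESCs and 17.9% in MEF, and its higher end at 106670247, with 50% in Actin-RFP ESCs, 77.6% in Gjb2-35delG ESCs and 87.4% in MEF. Itga6 has its lower end at position 71786886 of chromosome 2, with 5.49% in Actin-RFP ESCs, 13.04% in Gjb2-35delG ESCs and 24.4% in MEF, and its higher end at 71858427, with 36.3%, 75.7% and 88.4% in that order. At each end of both genes Actin-RFP ESCs were lowest and MEF highest.

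**Figure D5:**
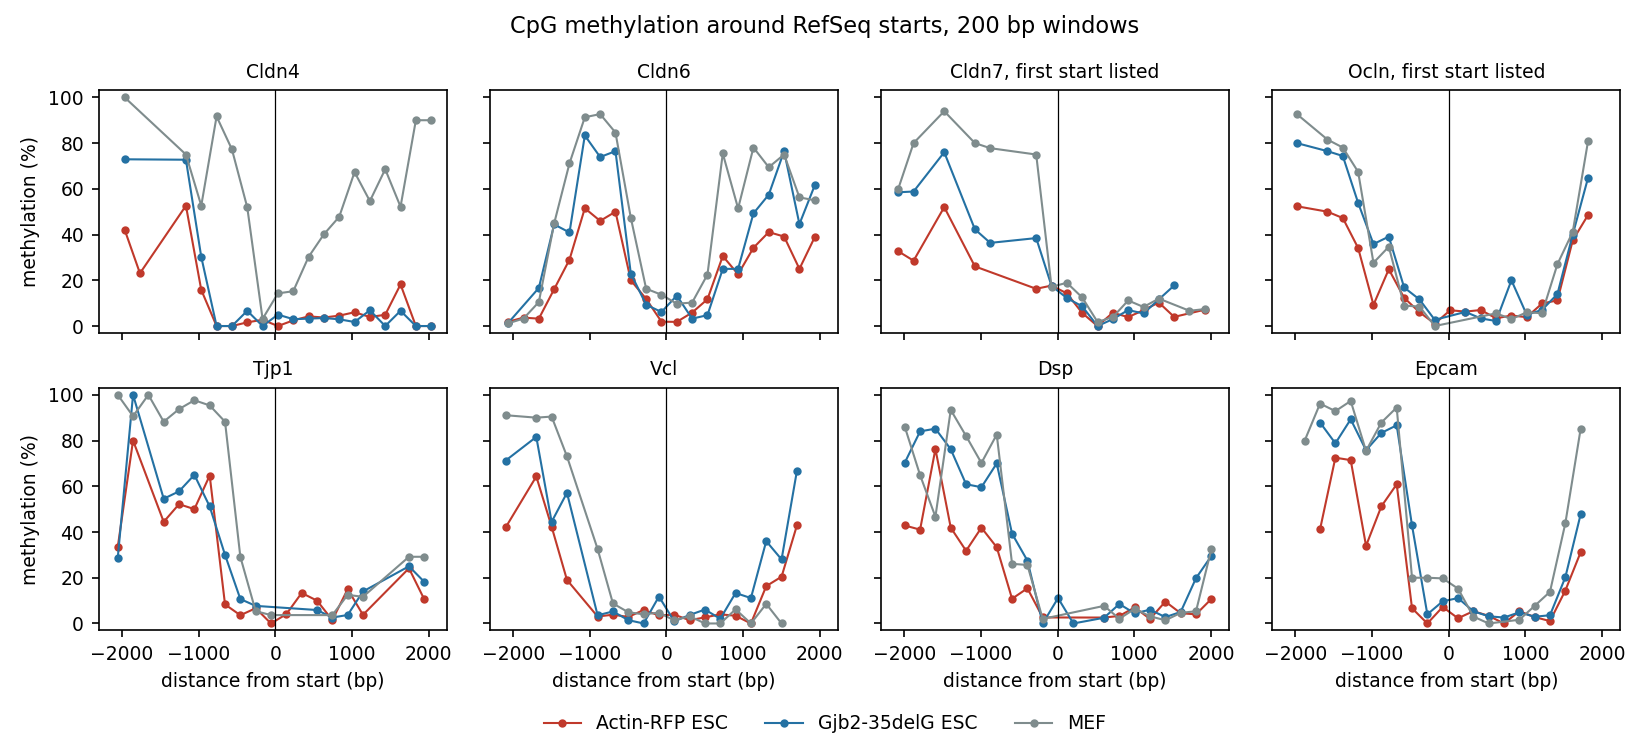
CpG methylation in percent (vertical axis) of 200 bp windows against distance from the RefSeq start in bp (horizontal axis, vertical line at the start) for 8 members with a start in the table, with 1 line each for Actin-RFP ESC, Gjb2-35delG ESC and MEF. Lines are drawn where a library has calls: for example, Tjp1 has none next to the start in Gjb2-35delG ESCs, nor Dsp in Actin-RFP ESCs and MEF. For Cldn4 the MEF line is high on both sides of it where both ESC lines are low.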

How the data were processed

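Per the labels' protocols, cells were picked singly by micromanipulator and a full-length cDNA kit without molecular identifiers was used. Build mm10, DESeq2 1.30.0, featureCounts 2.0.0, STAR 2.7.3a, fastp 0.20.0, deepTools 3.3.1 and StringTie 2.0 are named in the submitters' processing notes, in no stated role. The authors deposited expression as a signal, reads per gene divided by 1 factor per cell. Dividing by the smallest value of each cell gave whole reads for 100% of values within 0.01. Of 13927 Ensembl IDs, 13926 were matched to a symbol. The deposited bisulfite files give, per 200 bp window, the authors' methylation fraction with counts of methylated and unmethylated calls, and percents here come from these counts. Which aligner and caller made these calls was not given in the sources used here. For the RNA values, the authors' log2 fold change, with its direction read from its signs, was used for description, and the authors' deposited p-value columns were not used.

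Reads were summed per colour and scaled to CPM, with a pseudocount of 1 CPM for log2 ratios, which understates the change of low genes. Reads are not single molecules, and the Poisson intervals treat them as independent. These intervals thus cover counting error of reads at most and can be too narrow. With 1 sample a colour no test between groups was made, and calls are a 2-fold difference. Depth summed to 311252955 reads over RFP cells and 223575696 over GFP cells. The members, lists and markers were chosen with earlier results of these data known. Text names all 10 members, from each list the 2 highest and 2 lowest log2 ratios among genes at 10 CPM in a colour, and the 6 genes most like the member mean, except 1 gene that is not reported here; Zeb1, Snai1, Amotl1, Jam3, Krt42 and genes of the marker lists were chosen after their values were seen. Alternatives changed the pseudocount, the scaling, the CPM limit, the depth and the cells left out. Calculations used Python 3.11.15 with numpy 2.4.6, pandas 2.3.3 and scipy 1.17.1, and the ratio step was tested on simulated data.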

Additional observations from a re-analysis of the deposited data

How the results depend on the processing

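The number of members lower in RFP cells was 6 or 7 under every alternative run, with 0 higher except without GFP34 or GFP19, when Tjp1 was. The share of cells at 10 CPM was smaller in RFP cells in 10 of 10 members, or in 9 with a limit of 50 CPM, where Vcl was at 0 in both colours. For these shares no count over all genes is given beside them. Of the 79 other junction genes, 41 lower and 5 higher became 25 lower and 1 higher with a pseudocount of 10 CPM, and 8 were higher with a pseudocount of 0.1 CPM. With mean log2(CPM + 1) over cells 1 was higher, and among genes at 10 CPM in a colour 1 was higher. Weighting cells equally on the log2 scale gave a median of -0.06 over all genes, against 0.08 with summed reads. The difference between tight junction and other classes was -0.57 without Dsp, a choice made after seeing the data, as were leaving out shallow cells and leaving out cells 1 at a time. With cells left out 1 at a time, 8 of 10 log2 ratios kept call and sign; Tjp1 ran from -0.06 to 1.11 and Vcl from -1.76 to -0.95. Starts at least 10 points lower in Gjb2-35delG ESCs than in MEF numbered 2, but 1 within 500 bp on either side, 4 from 2000 bp upstream to 1000 bp downstream and 4 with windows weighted equally, and 2, though not the same 2, over windows covered in all 3 lines; the cause was not tested. No paired analysis was possible because cell numbers only name cells and no result comes from a test. Counts of Dsp and Vcl in RFP cells are too few to order cells by them.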
